A study of Mus musculus with 5 samples.

Results

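The breakdown of branched-chain amino acids and the use of ketone bodies were followed across 31 gene names. The genes were chosen by name, with earlier results of these data known. They cover the enzymes of leucine, valine and isoleucine catabolism and the propionate and cobalamin steps that follow them. They also cover the enzymes that take up ketone bodies into the citric acid cycle, and single genes of lysine breakdown and of pathway control. The table of all genes listed 28 of these names among 15116 genes. Hadh2 and Mut are older names of Hsd17b10 and Mmut in RefSeq, of which Mmut was already among the 28, and Bdh2 was not analysed here. RNA was sequenced from whole hearts of 5 mice. The 2 knockout mice were Immtfl/fl-Myh6-MCM, in which a tamoxifen-inducible Cre driven by the cardiomyocyte promoter Myh6 removes a floxed exon of Immt, the gene for the Mic60 scaffold of mitochondrial cristae junctions. They received tamoxifen at 6 weeks of age and hearts were taken 10 weeks later. The 3 control mice were Immt+/+-Myh6-Cre, which are also labelled as injected with tamoxifen, carry no floxed Immt allele and were described as age-matched. The control Cre is constitutive and the knockout Cre inducible, so the Immt deletion, the Cre line and any difference that goes with the line cannot be told apart. The study used only males of the Myh6-Cre line and both sexes of the inducible line. In both knockout libraries the Y-linked genes were near the control means, at 33.0 and 36.5 CPM for Ddx3y (control mean 31.2), 4.34 and 5.19 CPM for Kdm5d (4.15), 21.8 and 19.0 CPM for Eif2s3y (23.6) and 10.1 and 9.45 CPM for Uty (11.9). None of the 4 was called, and Xist was not analysed here.

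Leucine, valine and isoleucine share their first reactions in mitochondria. Branched-chain aminotransferases move the amino group to 2-oxoglutarate, and the branched-chain keto acid dehydrogenase complex then commits the keto acids to breakdown, with a kinase that switches the complex off and a phosphatase that switches it on. Leucine ends as acetyl-CoA and acetoacetate, whereas valine and isoleucine yield propionyl-CoA, which is carboxylated and rearranged to succinyl-CoA by a cobalamin-dependent mutase. The heart is also a large consumer of ketone bodies, and impaired branched-chain catabolism is a known feature of failing hearts.

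Each gene was deposited as a mean and a standard deviation (SD) per group, in normalized counts per M reads (CPM). The groups held 3 control and 2 knockout libraries, and the effective library sizes worked back from the table ran from 12.1 to 13.6 M reads in the controls and from 14.1 to 15.2 M in the knockouts. Differences were tested for all 15116 genes with limma on log2(CPM + 0.5), a gene being called at an adjusted p under 0.05 (Benjamini-Hochberg), and fold changes are on that scale with their standard error (SE). Nothing in the labels ties libraries to litters or preparation days, and the p-values measure only the spread between these mice. Immt itself was 249, 263 and 250 CPM in the control libraries and 15.98 and 19.8 CPM in the knockout libraries, lower in both knockout libraries. Reads primed from the poly-A end may lie outside the floxed exon, so this level does not check the deletion itself. Cardiomyocyte markers were at high levels, summing to 21938 CPM in the controls and 19527 CPM in the knockouts, with 4 of 8 called lower and 0 higher. Endothelial, macrophage, smooth muscle and erythroid markers gave 0 calls, fibroblast markers gave 1 of 5 (Dcn, lower), and the 4 adipocyte markers were not analysed here. Of all genes tested, 12.9% were called lower and 13.3% higher. The summed erythroid markers were 5930 CPM in the controls and 3369 CPM in the knockouts. In whole hearts, fewer cells of a type and less RNA per cell cannot be told apart, and the part of these marker differences in the results was not tested. Values per library could be worked back for 84.2% of the genes, including 25 of the 28, from the deposited mean and SD. These libraries are named A, B and C here in order of size and cannot be tied to the numbered mice. Control library C stood apart from the other controls most often, being the farthest in 46.6% of 7426 genes with values of at least 5 CPM and in 14 of the 25 genes studied here.

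The promoters of 4 genes that fell in the knockout hearts in every alternative in which they could be fitted are shown, the phosphatase that activates the keto acid dehydrogenase (Ppm1k), the mitochondrial aminotransferase (Bcat2) and the first enzymes of the leucine branch (Ivd, Mccc1). They were chosen after their values were seen. Oxct1 also fell in every alternative in which it could be fitted, and its promoter is not shown. Each is the RefSeq window of 250 bases before to 50 bases after a start site on GRCm38.p6, a different build from the GRCm39 named in the submitters' processing notes, read 5′ to 3′ on the gene's strand. Capitals mark the CACCC box, CCACCC or its reverse complement GGGTGG, which factors of the KLF family are known to bind.
Ppm1k (chr6:57535438-57535737, minus strand): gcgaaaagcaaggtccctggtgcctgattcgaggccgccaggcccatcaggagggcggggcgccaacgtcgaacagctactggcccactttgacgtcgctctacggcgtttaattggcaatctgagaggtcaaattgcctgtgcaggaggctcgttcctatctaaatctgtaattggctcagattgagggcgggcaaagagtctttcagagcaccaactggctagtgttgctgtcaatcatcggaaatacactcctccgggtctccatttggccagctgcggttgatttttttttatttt
Bcat2 (chr7:45569903-45570202, plus strand): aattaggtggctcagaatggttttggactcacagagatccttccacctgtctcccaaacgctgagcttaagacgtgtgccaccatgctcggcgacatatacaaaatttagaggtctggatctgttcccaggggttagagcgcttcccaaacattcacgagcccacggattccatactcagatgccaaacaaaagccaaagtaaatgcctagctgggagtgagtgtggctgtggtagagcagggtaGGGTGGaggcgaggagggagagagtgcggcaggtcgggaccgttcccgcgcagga
Ivd (chr2:118861744-118862043, plus strand): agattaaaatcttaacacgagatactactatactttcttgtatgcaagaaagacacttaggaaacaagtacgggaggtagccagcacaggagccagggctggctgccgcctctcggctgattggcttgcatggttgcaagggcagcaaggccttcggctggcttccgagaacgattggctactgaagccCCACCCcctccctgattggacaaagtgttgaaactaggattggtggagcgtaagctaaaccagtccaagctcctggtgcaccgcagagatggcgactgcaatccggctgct
Mccc1 (chr3:36000629-36000928, minus strand): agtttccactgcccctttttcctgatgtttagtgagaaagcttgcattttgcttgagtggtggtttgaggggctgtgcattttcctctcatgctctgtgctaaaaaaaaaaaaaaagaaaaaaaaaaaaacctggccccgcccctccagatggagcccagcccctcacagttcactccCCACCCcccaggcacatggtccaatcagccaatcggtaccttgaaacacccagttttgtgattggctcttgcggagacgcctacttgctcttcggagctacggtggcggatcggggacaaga
The box began 5 bases before the start site in Bcat2, 61 bases before it in Ivd and 72 bases before it in Mccc1, and the Ppm1k window held none. Bcat2 had a further window without it, and the window of Oxct1, not shown, held none.

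Of the 28 genes, 23 matched a RefSeq promoter, and Dbt, Abat, Mmut, Acat1 and Aldh7a1 did not. CCACCC on either strand was in a window of 9 of these 23 genes and of 4 of the 8 called ones (Ivd, Mccc1, Bcat2 and Bdh1), beside 31.5% of all 32851 promoters. The E-box CACGTG was found for Klf15 and Mccc2, beside 7.15% of all promoters. The amino acid response element TGATGCAA, the cAMP response element TGACGTCA and the estrogen-related receptor element AAGGTCA, each searched on both strands, were in 0 windows of the 23 genes, beside 0.895%, 1.79% and 4.72% of all promoters. Genes with several windows had more chances of a match, and a match is a description of letters only.

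Across the 28 genes, the knockout hearts had 8 genes lower and 2 higher. Ppm1k, Bcat2, Ivd, Mccc1, Abat, Oxct1, Dbt and Mcee fell, whereas Bdh1 and Hibch rose. Among all genes tested, 12.9% were called lower and 13.3% higher, 26.2% in all. The median log2 fold change was −0.17 over the 28 genes and −0.02 over all genes, and 21 of the 28 were below 0. Under scaling to library totals the same medians were −0.05 and 0.09, with 5 genes called lower and 5 higher. Ppm1k and Bcat2 were called with an absolute log2 fold change above 1, as were 5.93% of all genes.

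**Figure D1:**
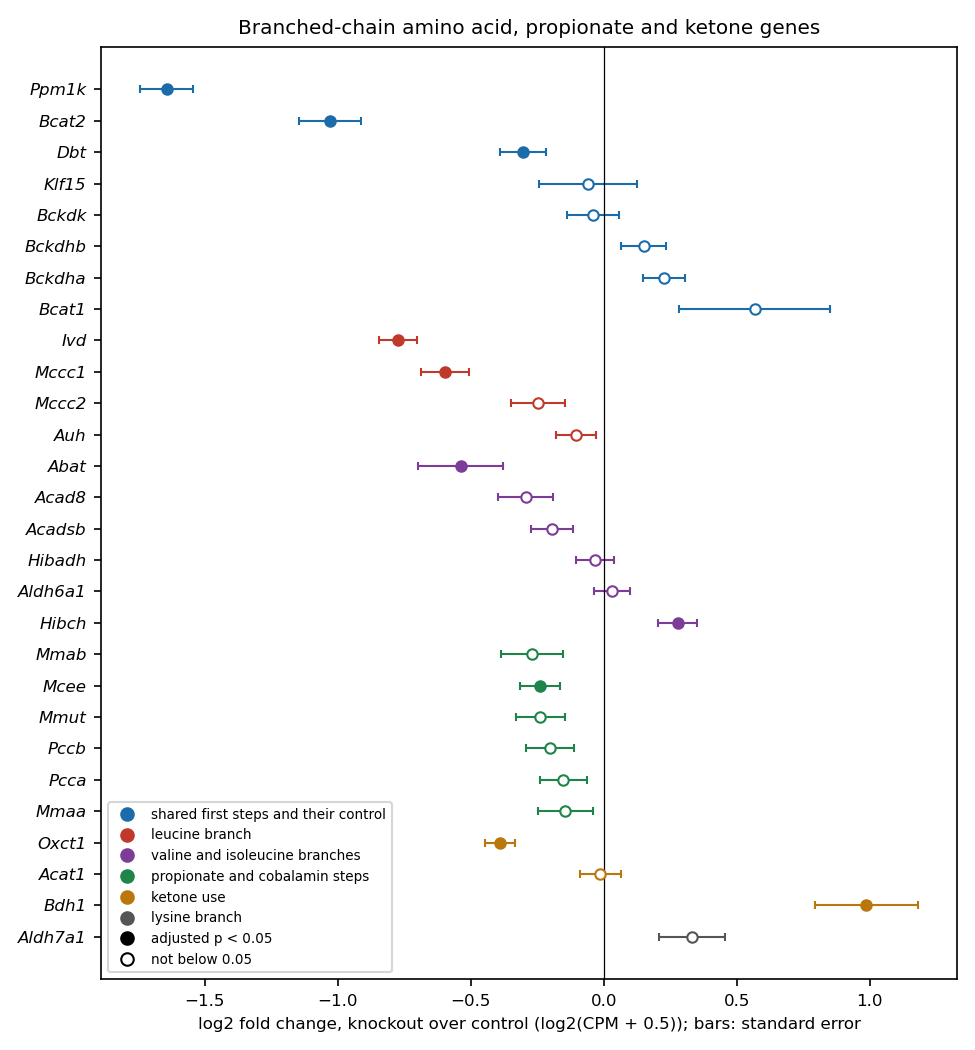
Log2 fold change of each of the 28 genes, knockout over control, on log2(CPM + 0.5), with bars of 1 SE and genes ordered within roles (colours). Filled points are the 10 genes with an adjusted p under 0.05, led by Ppm1k at −1.64, and the 6 propionate and cobalamin genes all lie left of 0.

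In the shared first steps, Ppm1k, the mitochondrial phosphatase that activates the keto acid dehydrogenase, was 16.4 CPM in knockout library A and 17.2 CPM in knockout library B. Its control values could not be worked back one by one, but the control mean was 53.6 ± 5.09 CPM (SD, n = 3), an SD that allows values from 47.7 to 59.5 CPM. The groups were thus far apart, and the knockout mean was 31.4% of the control mean. The log2 fold change was −1.64 ± 0.10 (SE) with an adjusted p of 1.6e-05, and the call held in all 9 alternatives in which it could be fitted. Its counterpart Bckdk, the kinase that inactivates the same complex, was 54.5, 57.9 and 47.5 CPM in the control libraries and 53.9 and 49.8 CPM in the knockout libraries. These values overlapped, and the log2 fold change of −0.04 had a 95% interval from −0.26 to 0.18 (adjusted p = 0.81). The difference between both genes was not itself tested.

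Bcat2, the mitochondrial aminotransferase, was 84.6, 87.2 and 67.2 CPM in the controls and 41.1 and 36.5 CPM in the knockouts. Both knockout libraries lay well under the lowest control, library C. The knockout mean was 48.7% of the control mean, with a log2 fold change of −1.03 ± 0.12 and an adjusted p of 0.00038. Bcat1, the cytosolic aminotransferase, was close to the limit of detection, with 11, 5 and 14 reads in the control libraries and 25 and 16 reads in the knockouts. These are 0.81, 0.37 and 1.16 CPM in the controls and 1.64 and 1.14 CPM in the knockouts, where knockout library B lay under control library C. Its log2 fold change of 0.57 had an interval from −0.08 to 1.21 (adjusted p = 0.18). Without control library C it was 0.82 (adjusted p = 0.042). Without control library A or B it was 0.65 (adjusted p = 0.25) and 0.35 (adjusted p = 0.42). Without knockout library A or B it was 0.41 and 0.80.

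Of the subunits of the keto acid dehydrogenase complex, Dbt alone passed the test. Dbt, the dihydrolipoyl transacylase core, was 25.0, 25.6 and 25.8 CPM in the controls and 20.1 and 21.0 CPM in the knockouts. These control values rest on quartered reads, the least certain of the values worked back, and the deposited SD alone allows 25.0 to 26.0 CPM. All knockout values lay below the controls, which were close to each other, and the log2 fold change was −0.30 ± 0.09 (adjusted p = 0.032). This call was lost without any one of control libraries A and B and knockout libraries A and B (adjusted p from 0.084 to 0.21) and under library totals (log2 fold change −0.18, adjusted p = 0.16). Bckdha, the E1 alpha subunit, was 52.7, 53.7 and 58.2 CPM in the controls and 65.6 and 63.0 CPM in the knockouts. Bckdhb, the E1 beta subunit, was 23.3, 24.5 and 23.5 CPM in the controls and 26.4 and 26.5 CPM in the knockouts. Neither E1 subunit overlapped between the groups, with knockout values above the controls, but neither passed the test. Their log2 fold changes were 0.23 (interval 0.05 to 0.41, adjusted p = 0.064) and 0.15 (interval −0.04 to 0.34, adjusted p = 0.24). Among genes with values per library that were not called, 16.3% had knockout values wholly above the controls. Under library totals both E1 subunits were called higher, at 0.35 (adjusted p = 0.0096) and 0.28 (adjusted p = 0.040). Bckdha was also called without control library C, at 0.27 (adjusted p = 0.016). Without control library A or B it was not called, at 0.20 (adjusted p = 0.19) and 0.21 (adjusted p = 0.17). Klf15, a transcription factor known in mice to drive branched-chain catabolic genes, was 23.0, 23.1 and 35.4 CPM in the controls and 25.9 and 26.1 CPM in the knockouts. Control library C alone lay above the knockouts, and the log2 fold change was −0.06 (interval −0.48 to 0.36, adjusted p = 0.84). Without that library it was 0.17.

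**Figure D2:**
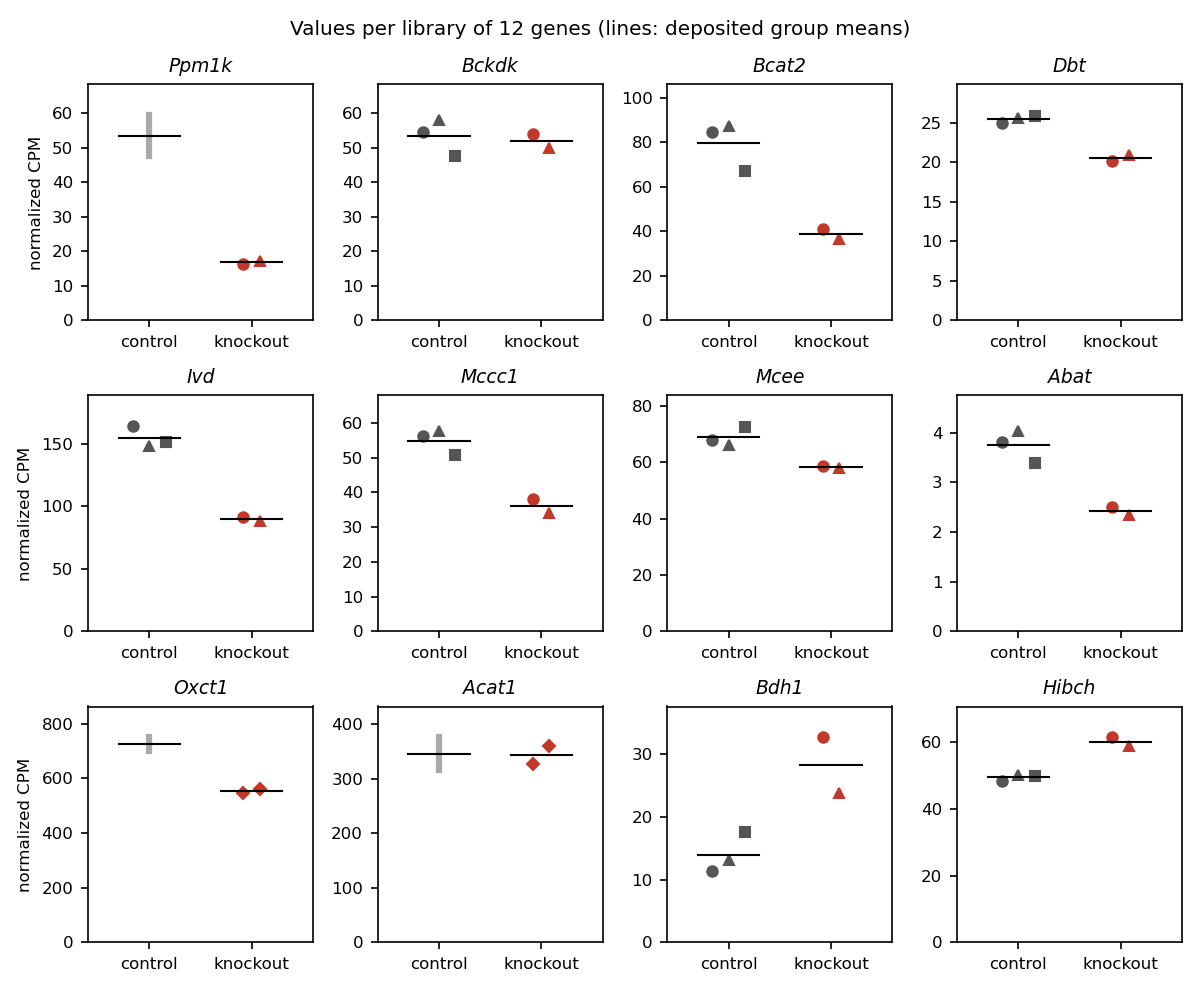
Normalized CPM per library for 12 of the genes, with control libraries in grey and knockout libraries in red and horizontal lines at the deposited group means. Grey bars replace control points where only the range allowed by the SD is known (Ppm1k, Oxct1 and Acat1), and diamonds are knockout values not tied to a library. The groups are apart in Ppm1k, Bcat2, Ivd and Mccc1 and overlap in Bckdk and Acat1.

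In the leucine branch, Ivd and Mccc1 fell. Ivd, isovaleryl-CoA dehydrogenase, was 163.9, 148.3 and 151.5 CPM in the controls and 91.7 and 88.7 CPM in the knockouts. The libraries of each group were close and the groups far apart, with a knockout mean at 58.4% of the control mean and a log2 fold change of −0.77 ± 0.07 (adjusted p = 0.00013). Mccc1, the biotin-carrying alpha subunit of 3-methylcrotonyl-CoA carboxylase, was 56.1, 57.5 and 50.6 CPM in the controls and 38.0 and 34.1 CPM in the knockouts. Again no knockout library reached a control, and the log2 fold change was −0.60 ± 0.09 (adjusted p = 0.0017). Mccc2, the beta subunit of the same carboxylase, was 50.4, 53.1 and 43.7 CPM in the controls and 43.5 and 39.0 CPM in the knockouts. Here knockout library A and control library C all but met, and the log2 fold change of −0.25 had an interval from −0.48 to −0.02 (adjusted p = 0.11). Without control library C it was −0.32 (adjusted p = 0.012). Without control library A or B it was −0.22 (adjusted p = 0.26) and −0.19 (adjusted p = 0.31). Under library totals it was −0.12 (adjusted p = 0.42). Auh, the methylglutaconyl-CoA hydratase of the next step, was 96.5, 96.6 and 89.2 CPM in the controls and 91.7 and 83.4 CPM in the knockouts, and the groups overlapped (log2 fold change −0.10, interval −0.28 to 0.07, adjusted p = 0.36). Summed over these 4 genes, the leucine branch was 367, 356 and 335 CPM in the controls and 265 and 245 CPM in the knockouts. The median log2 fold change of the branch was −0.42, with 2 of 4 called lower and 0 higher. Over all genes tested these shares were 12.9% and 13.3%.

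The 6 genes listed with valine and isoleucine breakdown gave 1 higher and 1 lower, beside 13.3% and 12.9% of all genes tested. Hibch, the hydrolase that frees 3-hydroxyisobutyrate from CoA in valine breakdown, was 48.4, 49.99 and 49.9 CPM in the controls and 61.4 and 58.7 CPM in the knockouts. The knockout values lay above all controls, and the log2 fold change was 0.28 ± 0.07 (adjusted p = 0.023). This call was lost on leaving out control library A, control library B or either knockout library (adjusted p from 0.068 to 0.19). Abat, an aminotransferase best known for the breakdown of GABA, was 3.81, 4.04 and 3.38 CPM in the controls and 2.50 and 2.35 CPM in the knockouts. The groups were apart at these low levels, with a log2 fold change of −0.54 ± 0.16 (adjusted p = 0.037), which was lost without the same libraries (adjusted p from 0.12 to 0.23) and under library totals (−0.43, adjusted p = 0.075).

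Acadsb, the acyl-CoA dehydrogenase of isoleucine breakdown, and Acad8, that of valine breakdown, did not overlap between the groups, with knockout values below the controls. Among genes with values per library that were not called, 19.7% had knockout values wholly below the controls. Acadsb was 58.1, 57.2 and 52.2 CPM in the controls and 48.8 and 48.7 CPM in the knockouts (log2 fold change −0.19, interval −0.37 to −0.01, adjusted p = 0.11). Acad8 was 20.4, 22.0 and 19.4 CPM in the controls and 15.9 and 17.5 CPM in the knockouts (log2 fold change −0.29, interval −0.53 to −0.06, adjusted p = 0.067). Neither passed the test. Both were called lower without control library C, at −0.24 (adjusted p = 0.028) and −0.33 (adjusted p = 0.027). Without control library A or B neither was called. Under library totals they were −0.067 (adjusted p = 0.58) and −0.17 (adjusted p = 0.26). Hibadh, which oxidizes 3-hydroxyisobutyrate, had deposited means of 177 CPM in the controls and 173 CPM in the knockouts, and Aldh6a1, which turns methylmalonate semialdehyde into propionyl-CoA, had 78.7 and 80.5 CPM. Both overlapped between the groups, with intervals from −0.19 to 0.13 and from −0.13 to 0.19.

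Hsd17b10, formerly Hadh2, the dehydrogenase of the isoleucine branch, is listed under its current name and was therefore counted outside the 28. It was 83.0, 80.4 and 84.1 CPM in the controls and 109 and 103 CPM in the knockouts. It rose by a log2 fold change of 0.36 ± 0.07 (adjusted p = 0.0052), with both knockout libraries above every control.

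All 6 propionate and cobalamin genes had log2 fold changes below 0, from −0.27 to −0.14, and knockout values that did not reach the controls, but only 1 passed the test. Of all genes tested 7994 of 15116 were below 0, and 28.5% of the genes with values per library had knockout values wholly below the controls. Under library totals the 6 log2 fold changes were nearer to 0, at −0.026 for Pcca, −0.076 for Pccb, −0.11 for Mmut, −0.11 for Mcee, −0.020 for Mmaa and −0.15 for Mmab. Mcee, methylmalonyl-CoA epimerase, was 67.9, 66.1 and 72.5 CPM in the controls and 58.5 and 58.0 CPM in the knockouts. The knockout libraries were close together below the controls, and the log2 fold change was −0.24 ± 0.07 (adjusted p = 0.045). The call stood at the threshold. In a fit of the values per library it was already lost with all 5 libraries (adjusted p = 0.053). Leaving out control library A, B or C in that fit gave adjusted p of 0.11, 0.081 and 0.054. Without knockout library A or B the log2 fold change was −0.24 and −0.23. Under library totals the adjusted p was 0.30. Pcca and Pccb, the subunits of propionyl-CoA carboxylase, had control means of 29.5 ± 1.72 and 34.4 ± 2.36 CPM (SD, n = 3) and knockout means of 26.5 ± 0.363 and 29.8 ± 0.544 CPM (SD, n = 2). Their log2 fold changes were −0.15 (adjusted p = 0.25) and −0.20 (adjusted p = 0.14).

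Mmut, the cobalamin-dependent methylmalonyl-CoA mutase, was 34.1, 37.9 and 32.8 CPM in the controls and 30.1 and 28.9 CPM in the knockouts (log2 fold change −0.24, interval −0.45 to −0.03, adjusted p = 0.094). Mmaa, which guards the cofactor of the mutase, and Mmab, which makes adenosylcobalamin, had log2 fold changes of −0.14 (adjusted p = 0.34) and −0.27 (adjusted p = 0.13). Without control library C, Pccb and Mmut were called lower, at −0.26 (adjusted p = 0.033) and −0.28 (adjusted p = 0.032). Without control library A or B neither was called (adjusted p from 0.17 to 0.34). Over all 12731 genes with values per library, 2159 were lower without control library C and 1603 with all 5 libraries. The summed CPM of the 6 genes was 199, 197 and 191 in the controls and 170 and 167 in the knockouts.

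**Figure D3:**
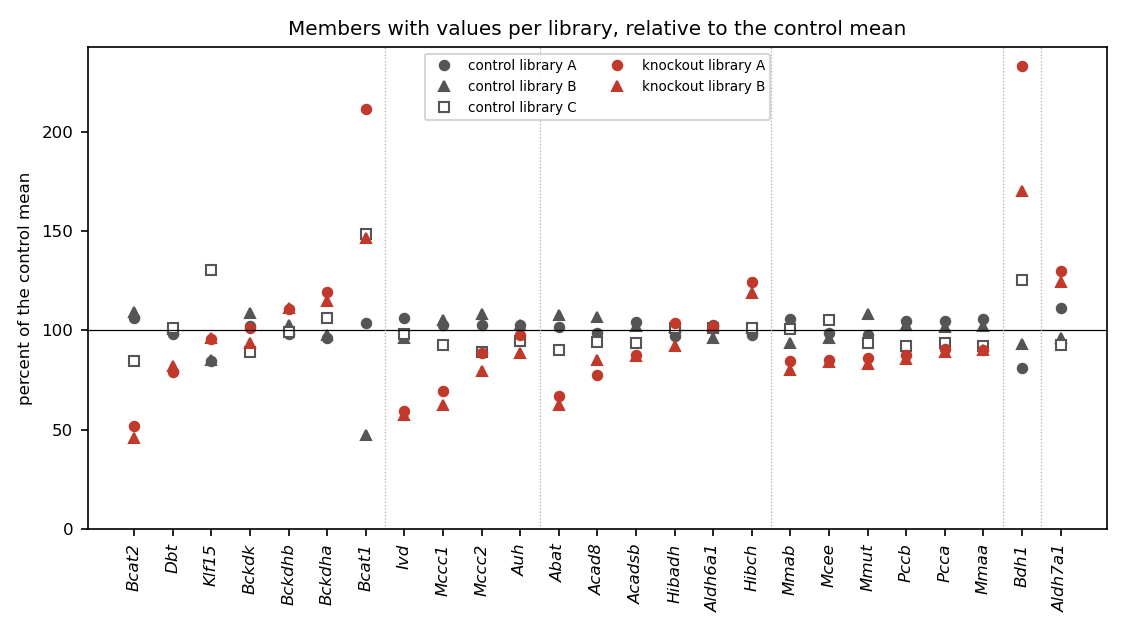
Value of each library as a percent of the deposited control mean, for the 25 genes with values per library, ordered by role with dotted lines between roles. Grey circles, triangles and open squares are control libraries A, B and C, and red circles and triangles are knockout libraries A and B. The propionate and cobalamin genes form a band of red points below the grey ones, and control library C is the lowest control in 13 of the 25 genes.

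Of the ketone enzymes, Oxct1 fell and Bdh1 rose. Oxct1, the succinyl-CoA transferase that activates acetoacetate, had knockout values of 547 and 559 CPM, which could not be assigned to library A or B. The control mean was 725 ± 21.2 CPM (SD, n = 3), which allows control values from 701 to 750 CPM. The groups did not overlap, the knockout mean was 76.3% of the control mean and the log2 fold change was −0.39 ± 0.06 (adjusted p = 0.0012), and the call held in all 9 alternatives in which it could be fitted. Bdh1, the mitochondrial dehydrogenase that interconverts 3-hydroxybutyrate and acetoacetate, was 11.4, 13.1 and 17.6 CPM in the controls and 32.7 and 23.8 CPM in the knockouts. Both groups were spread, with control library C and knockout library A highest, but they did not overlap. The knockout mean was 202% of the control mean, and the log2 fold change was 0.99 ± 0.19 (adjusted p = 0.0062). Without knockout library A it was 0.77 (adjusted p = 0.088). Acat1, the thiolase that completes ketone body and isoleucine breakdown, had means of 346 ± 25.9 CPM (SD, n = 3) and 343 ± 24.1 CPM (SD, n = 2), with a log2 fold change of −0.01 (interval −0.19 to 0.17, adjusted p = 0.93). The difference between the ketone enzymes was not itself tested.

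Aldh7a1, a dehydrogenase of lysine breakdown, was 10.4, 9.03 and 8.67 CPM in the controls and 12.2 and 11.7 CPM in the knockouts. The knockout values lay above the controls, but the log2 fold change of 0.33 (interval 0.05 to 0.61) missed the threshold (adjusted p = 0.082). Under library totals it was 0.45 (adjusted p = 0.024). Knockout values lay wholly above the controls in 16.3% of the genes with values per library that were not called.

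Of the 25 genes with values per library, 14 had all knockout values below all control values and 5 had all above, while Bcat1, Bckdk, Auh, Hibadh, Aldh6a1 and Klf15 overlapped. Among the 12731 genes with such values, 28.5% were without overlap below and 22.8% above, 51.2% in all. Of the 17 of these 25 genes that were not called, 8 had knockout values wholly below the controls and 3 wholly above, beside 19.7% and 16.3% of the 9692 genes with such values that were not called.

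Neighbouring genes of the same pathways were counted from lists that the rule does not hold, beside 13.3% called higher and 12.9% lower among all genes tested. Among 10 other branched-chain genes, 3 were higher and 1 lower, and the largest difference was that of Slc7a5, the light chain of the leucine importer. It was 6.28 ± 0.668 CPM (SD, n = 3) in the controls and 51.4 ± 3.06 CPM (SD, n = 2) in the knockouts, a log2 fold change of 2.94 ± 0.12 (adjusted p = 2.4e-06). Its partner Slc3a2, the heavy chain, had means of 41.9 CPM in the controls and 100.05 CPM in the knockouts, and its log2 fold change of 1.25 had an adjusted p of 0.0010. Slc43a2, another transporter of large neutral amino acids, had means of 11.8 and 6.89 CPM, and its log2 fold change of −0.74 had an adjusted p of 0.0028. The other higher gene was Hsd17b10.

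Among 13 other propionate and cobalamin genes, 2 were higher and 1 lower. Mmadhc, which directs cobalamin to its enzymes, was 93.4 CPM in the control mean and 121 CPM in the knockout mean, with an adjusted p of 0.0064 for a log2 fold change of 0.37. Suclg2, a subunit of GTP-forming succinyl-CoA ligase, had means of 104 and 134 CPM, with an adjusted p of 0.0064 for a log2 fold change of 0.35. Mtr, the cytosolic cobalamin-dependent methionine synthase, fell from 74.4 ± 17.7 CPM (SD, n = 3) to 43.4 ± 0.492 CPM (SD, n = 2), a log2 fold change of −0.77 ± 0.17 (adjusted p = 0.0094). Of 8 other ketone genes only Bsg, the chaperone of monocarboxylate transporters, was called, with means of 1037 and 1268 CPM and a log2 fold change of 0.29 at an adjusted p of 0.0038. Of 4 other lysine genes only Gcdh, glutaryl-CoA dehydrogenase, was called, with means of 23.6 and 17.6 CPM and a log2 fold change of −0.41 at an adjusted p of 0.027.

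Other mitochondrial pathways served as a description of the background, again beside 13.3% called higher and 12.9% lower among all genes tested. Of 22 genes of the citric acid cycle and pyruvate dehydrogenase, 4 were higher (Pdhb, Ogdh and Suclg2 among them) and 2 lower, Sdhd among them. Of 17 genes of fatty acid beta-oxidation, 2 were higher (Cpt1b and Eci1) and 4 lower, Acaa2 and Cpt2 among them. Their median log2 fold changes were 0.03 and −0.03, beside −0.17 for the 28 genes. All 8 genes listed for amino acid synthesis in the stress response, the folate enzyme gene Mthfd2 among them, rose, with a median log2 fold change of 3.09. This list, like the others, was chosen with earlier results of these data known, so its rise is no independent result. No test compared these lists with each other.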

How the data were processed

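Whole-heart RNA of 3 control and 2 knockout mice was made into oligo-dT-primed libraries with unique molecular identifiers and deduplicated, per the labels and the study's methods. The submitters' processing notes name edgeR 4.0.16, Subread 2.1.1 with featureCounts, SAMtools 1.22.1, STAR 2.7.11 and the build GRCm39. The deposited signal values are group means and SDs of CPM on normalized library sizes, made by the authors, for 15116 genes, and the filter behind them is not given in the sources used here. The same table holds columns of the authors' own comparison (log fold changes, F, p-values and adjusted p-values), which were not used. Without counts per library, edgeR's test could not be the main test.

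Group means were compared in limma 3.58.1 (R 4.3.3) as log2(mean + 0.5 CPM), with the variance of the log2 values worked out from the SDs (delta method, 3 residual degrees of freedom), moderated with a mean-variance trend (5.57 prior degrees of freedom) and adjusted (Benjamini-Hochberg) over all genes. Reads per library were worked back from mean and SD as whole, halved or quartered reads, within the rounding of 6 significant digits, with 1 solution required. This solved 13035 control genes (9808 as whole reads) and 13274 knockout genes (10431 as whole reads). With the same steps at shifted library sizes, 28 of 1494 control genes were solved (1 as whole reads, 16 as halved, 11 as quartered reads), against 1297 at the fitted sizes, and 0 of 1486 knockout genes, against 1323. Control values of Bcat2, Bckdha, Bckdhb, Acad8, Hibch, Hibadh and Mmaa rest on halved reads and those of Dbt on quartered reads. Knockout values of Bckdhb, Hibadh and Pcca rest on halved reads and those of Ppm1k and Hibch on quartered reads. In the control check, halved reads gave 16 solutions at shifted sizes against 278 at the fitted sizes, and quartered reads 11 against 34. A limma fit of these values, and each library left out in turn, were added after seeing the data. The tests were also run on simulated counts with the same dispersion for every gene, which does not measure their error rate in these mice.

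The genes and lists were chosen with earlier results of these data known. Named genes were every member listed, Immt, and in each other list up to 4 called genes with the smallest p. The alternatives tried were scaling to library totals (also without the mitochondrial genome), other pseudocounts, a minimum mean of 5 CPM, no trend and robust moderation, and keeping 1 knockout value. Promoters were taken from RefSeq (GRCm38.p6). Python 3.11.15 with pandas 2.3.3 served for the tables.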

Additional observations from a re-analysis of the deposited data

How the results depend on the processing

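Ppm1k, Bcat2, Ivd, Mccc1 and Oxct1 kept their calls in every alternative in which they could be fitted, with adjusted p from 2.5e-06 to 0.0019 for Ppm1k, from 1.7e-06 to 0.016 for Bcat2, from 1.1e-05 to 0.0073 for Ivd, from 0.00013 to 0.040 for Mccc1 and from 0.00030 to 0.035 for Oxct1, and no called gene changed sign. Bdh1 kept its call in 13 of 15, Hibch in 8 of 15, Dbt in 7 of 15, Abat in 7 of 14 and Mcee in 4 of 15 alternatives. Fits without a library rest on 4 libraries, and with 1 knockout library the lone one is assumed to vary like the controls. Over the 28 genes, 5 were higher and 5 lower under library totals, 1 was higher without the mean-variance trend, and 5 of 25 were lower with values per library. Leave-one-out fits gave 0 to 4 higher and 3 to 10 lower. The median log2 fold change of the 28 genes moved to −0.046 under library totals. Over all genes, 3067 were higher under library totals, 1277 lower with a minimum mean of 5 CPM (9067 genes) and 1292 higher with values per library, and leave-one-out fits gave 484 to 1755 higher and 605 to 2159 lower. Genes of the mitochondrial genome took 36.7% of the summed CPM in the controls and 32.2% in the knockouts, and scaling to library totals moved the median of all genes by over 0.1, from −0.02 to 0.09.

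None of the genes that reversed was called. Under library totals the log2 fold changes were 0.088 for Bckdk, 0.024 for Auh, 0.095 for Hibadh, 0.12 for Acat1 and 0.066 for Klf15, and without the mitochondrial genome in the totals 0.018 for Acat1. With a control or knockout library left out, or with the range that the SD allows, they ran from −0.12 to 0.044 for Bckdk, from −0.12 to 0.050 for Hibadh, from −0.086 to 0.057 for Acat1 and from −0.26 to 0.17 for Klf15. The cause was not tested. No paired analysis was possible because the values per library cannot be tied to the replicate numbers and the deposited group means carry none. Depth limits Bcat1, with 5 to 25 reads per library. Control library C changed the most calls, with 10 lower and 4 higher genes of 25 when it was left out. Over the 12731 genes with values per library, 2159 were then lower and 1755 higher. With all 5 libraries these were 1603 and 1292.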
